A study of Mus musculus with 20 samples.

Results

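Mutation of the kidney glucose transporter SGLT2 was compared with its WT form in kidney cortex of mice on a high-fat diet (HFD) that received placebo. The comparison holds 10 of the 20 RNA-seq libraries of the series, chosen by their labels alone: the 5 libraries labelled SP and placebo and the 5 labelled WT and placebo. SP (Sweet Pee) mice carry a missense mutation in Slc5a2, the gene for SGLT2, and homozygous mice lack functional SGLT2 protein. Male C3H/HeJ mice of both genotypes were 10 weeks old when HFD began, ate HFD for 8 weeks, and then received DMSO as placebo by intraperitoneal injection 3 times per week for 8 weeks. The mutation is in the germ line and so in every cell of the SP mice, and no group on a normal diet is among the 20 libraries used here, so that an effect of the diet itself was not measured. The other 10 libraries, 5 SP MAT2Ai and 5 WT MAT2Ai, came from mice on the same schedule that received 10 mg/kg of MAT2Ai, an inhibitor of the methionine adenosyltransferase MAT2A, and are used below only where the genotypes can be set side by side in libraries that the placebo comparison does not share. Nothing in the labels ties a library to a litter or a day. The p values measure the spread between libraries, estimated over all 20 together.

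SGLT2 sits in the brush border of the early proximal tubule, where it takes up most of the filtered glucose together with sodium. SGLT1, encoded by Slc5a1, takes up what remains further along the tubule, and glucose then leaves the cell towards the blood through facilitated carriers such as GLUT2 and GLUT1. Loss of SGLT2 sends glucose into the urine, and drugs that block it protect the kidney in diabetes.

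Slc5a2 lies at chr7:128265657-128272430 (mm10, plus strand), and its coding transcript Slc5a2-202 has 14 exons and 2277 bases in GENCODE M21. The study genotyped the mice by a TaqI site (TCGA) that WT DNA has and mutant DNA lacks. The reference transcript holds 2 such sites in its coding part, shown here with the site in capitals because the allele that separates the groups is read at a site of this kind. Whether the mutation removes either of them is not given in the sources used here. Only the spliced transcript was searched, so that sites in introns or across exon borders would be missed.
Exon 7, chr7:128268986-128268989: tactcgggtctctTCGAcaaatacctggga
Exon 11, chr7:128270861-128270864: ggtgggcagctctTCGAttacattcagtct

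The libraries were deep. Gene counts per library ranged from 65612715 to 74898622 in the SP placebo group and from 53296824 to 64621039 in the WT placebo group, so depth was higher in every SP library. Mitochondrial transcripts took 12.4% to 19.5% of gene counts in SP placebo libraries and 15.4% to 18.0% in WT placebo libraries. Xist was at or near 0 and Ddx3y, on the Y chromosome, was at 79.3 ± 7.17 CPM in SP placebo and 79.9 ± 2.67 CPM in WT placebo (mean ± SD, n = 5 each). The summed level of 16 markers of proximal tubule segments S1 and S2 ran from 14200 to 16630 CPM in SP placebo and from 14270 to 16160 CPM in WT placebo. CPM are counts per 1000000 gene counts of a library, with library totals scaled by TMM, and in such bulk samples fewer cells of a type and less RNA per cell cannot be told apart.

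Single libraries touch the results in the following ways. The libraries labelled SP placebo 1 and 2 held far more Slc5a2 than the other SP libraries, as described next. WT placebo 1, 2 and 3 carried lung transcripts: Scgb1a1, the secretoglobin of airway club cells, was at 2.12, 1.22 and 0.307 CPM there, and the surfactant gene Sftpc at 0.758, 0.327 and 0.242 CPM. In the SP placebo libraries Scgb1a1 lay between 0.0146 and 0.25 CPM, and Sftpc reached at most 0.0156 CPM. WT placebo 4 and 5 had 0.266 and 0.203 CPM of Scgb1a1 and at most 0.0166 CPM of Sftpc. The summed level of 8 lung epithelial genes was 0.335 to 1.14 CPM in SP placebo and 0.516 to 3.68 CPM in WT placebo, and 2 of the 8 had enough counts to be tested. Scgb1a1 and Sftpc were picked after their values were seen.

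Slc5a2 mRNA itself separated the groups without any overlap. It was at 241, 282, 70.0, 40.2 and 56.7 CPM in SP placebo libraries 1 to 5, against 371, 518, 380, 405 and 448 CPM in WT placebo libraries 1 to 5. All 5 SP libraries were therefore below all 5 WT libraries, but SP 1 and SP 2 kept 56.8% and 66.6% of the WT mean, whereas SP 3, 4 and 5 had 16.5%, 9.5% and 13.4% of it. The log2 fold change was -1.62 ± 0.40 (SE, 95% interval -2.46 to -0.78), and the edgeR quasi-likelihood test with Benjamini-Hochberg adjustment over 16152 genes gave an adjusted p of 0.855. Without SP placebo 1 and 2, the log2 fold change was -2.94 with an adjusted p of 2.03e-05, and Slc5a2 was then the 1 gene of 16551 (0.00604%) past the threshold of 0.05, with 823 genes (4.97%) at an unadjusted p under 0.05. Those libraries were left out because of their Slc5a2 level, so this p is conditional on the outcome and is given as a description only. In the MAT2Ai libraries, none of which entered this comparison, Slc5a2 was at 72.6, 47.0, 43.5, 86.0 and 60.0 CPM in SP mice and at 415, 229, 390, 325 and 385 CPM in WT mice, without overlap (log2 fold change -2.495, adjusted p = 0.0223). The SP MAT2Ai libraries lay far below SP placebo 1 and 2 and near SP placebo 3 to 5. This and every other MAT2Ai call named below was lost without SP MAT2Ai 3 or without SP MAT2Ai 5, when 0 genes passed. Whether SP placebo 1 and 2 came from mice of the labelled genotype was not tested, and they are called by their labels here.

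**Figure D1:**
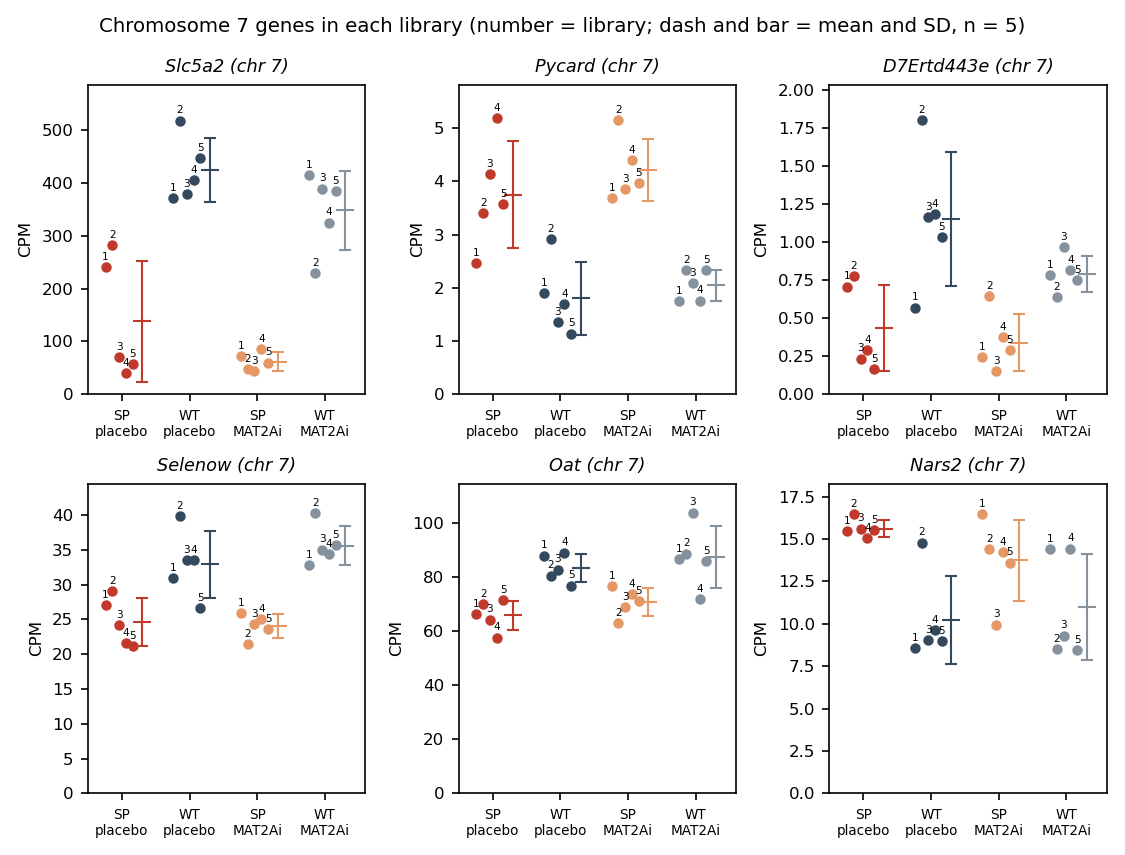
CPM of 6 chromosome 7 genes (vertical axes) in each library of the 4 groups (horizontal axes). Points are libraries with their number, and the dash and bar are the mean and SD of 5 libraries. Slc5a2 in SP placebo 1 and 2 (241 and 282 CPM) lies between the other SP libraries and WT, and Nars2 lies either between 8.44 and 9.95 CPM or between 13.6 and 16.5 CPM.

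Across the transcriptome, no gene passed the threshold between SP placebo and WT placebo. The edgeR quasi-likelihood test called 0 of 16152 genes (0.0%) at an adjusted p under 0.05. At an unadjusted p under 0.05 there were 606 genes (3.75%), 274 higher in SP (1.7%) and 332 lower (2.06%). The 5 SP libraries lay wholly apart from the 5 WT libraries for 193 genes (1.19%), of which 106 were above WT (0.656%) and 87 below (0.539%). There were 7 calls by DESeq2, 7 by the likelihood ratio test of edgeR and 4 by limma-voom using weights per sample. The absence of calls does not show that the genotypes had equal levels: the 95% interval of the log2 fold change lay within -1 to 1 for 13328 genes (82.5%) and within -0.5 to 0.5 for 9933 (61.5%), so a difference above that size remained possible for the rest.

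Genes next to Slc5a2 on chromosome 7 were examined as a group. Of 199 other tested genes within 10 Mb, none was called, 2 were higher and 7 lower at an unadjusted p under 0.05 (4.52%, against 3.75% of all genes), and 3 lay wholly apart (1.51%, against 1.19%). Over all of chromosome 7, 63 of 1170 genes had such a p (5.38%), a larger share than on any other autosome, the next being chromosome 6 with 4.63%. These shares were not tested against each other.

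Pycard, which encodes the inflammasome adaptor ASC, had the smallest p of the genes within 10 Mb of Slc5a2 and lies at chr7:127989708-127993867. It was at 2.46, 3.41, 4.14, 5.19 and 3.57 CPM in SP placebo 1 to 5, against 1.90, 2.92, 1.36, 1.70 and 1.14 CPM in WT placebo 1 to 5. Only SP 1 and WT 2 crossed over. The log2 fold change was 1.06 ± 0.22 (adjusted p = 0.399 by the edgeR quasi-likelihood test), and leaving out WT placebo 2 took the adjusted p to 0.0436. DESeq2 gave an adjusted p of 0.00649, the likelihood ratio test 0.0166 and limma-voom 0.0221. In the MAT2Ai libraries the same gene was at 3.69 to 5.16 CPM in SP mice and 1.75 to 2.33 CPM in WT mice, with a log2 fold change of 1.04 (adjusted p = 0.0311, a call lost without SP MAT2Ai 3 or 5).

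Oat, the mitochondrial ornithine aminotransferase, lies 4285 kb beyond Slc5a2. It was at 66.1, 69.9, 64.2, 57.6 and 71.3 CPM in SP placebo, against 87.8, 80.5, 82.6, 89.0 and 76.7 CPM in WT placebo, with no overlap (log2 fold change -0.34 ± 0.08, adjusted p = 0.854). D7Ertd443e, a gene 5993 kb away that was picked after its values were seen, was at 0.707, 0.777, 0.234, 0.291 and 0.167 CPM in SP placebo 1 to 5 and at 0.569, 1.80, 1.16, 1.18 and 1.03 CPM in WT placebo 1 to 5. As with Slc5a2, SP 1 and SP 2 were the highest SP libraries. The log2 fold change was -1.40, and -2.32 without them, a shift that leaving out the highest SP libraries must bring. How many genes share this order was not tested. AI467606 (-0.54), Chst15 (-0.53), a sulfotransferase, and the noncoding 1500002F19Rik (-1.23) were also lower in SP placebo at an unadjusted p under 0.05, and were picked in the same way.

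The neighbour BC017158 overlaps the 3′ end of Slc5a2 on the opposite strand, and reads of the shared stretch cannot be told apart where counting ignores strand. It moved the other way by a small amount, with 30.5 to 33.6 CPM in SP placebo and 25.4 to 30.2 CPM in WT placebo (log2 fold change 0.17, unadjusted p = 0.00365).

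**Figure D2:**
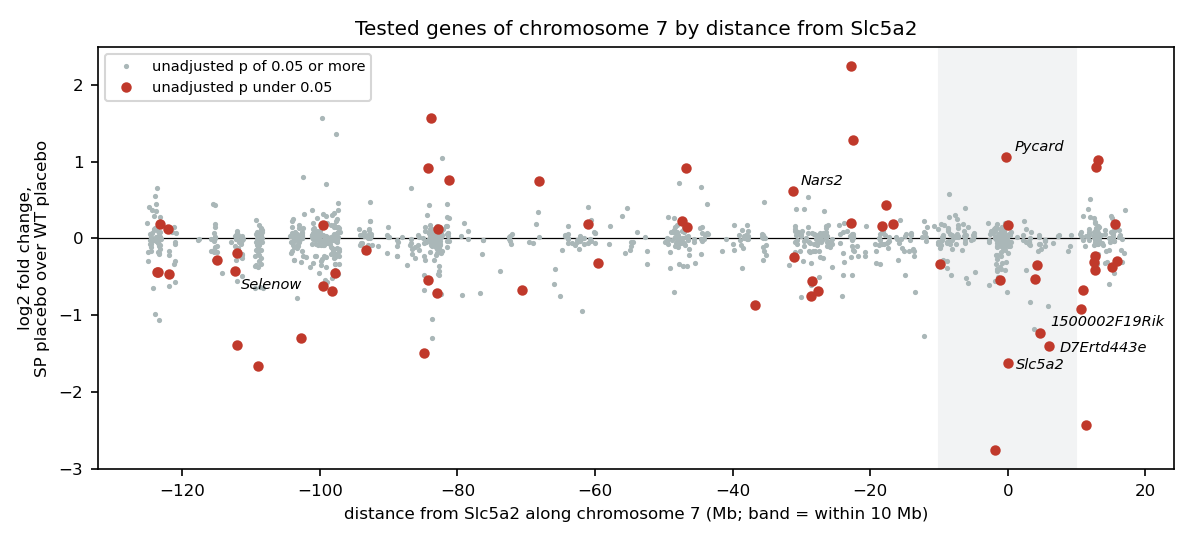
Log2 fold change of SP placebo over WT placebo (vertical axis) for the 1170 tested genes of chromosome 7, by distance in Mb between gene midpoints and the midpoint of Slc5a2 (horizontal axis, band within 10 Mb). Filled points have an unadjusted p under 0.05, and they occur along the whole chromosome as well as near Slc5a2.

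Selenow and Nars2 lie on the same chromosome, outside that window. Selenow, a small thioredoxin-like selenoprotein, was at 27.03, 29.0, 24.1, 21.6 and 21.2 CPM in SP placebo, against 31.0, 39.9, 33.5, 33.5 and 26.6 CPM in WT placebo (log2 fold change -0.42 ± 0.10, adjusted p = 0.833). WT placebo 5 lay within the SP range. In the MAT2Ai libraries Selenow was at 21.5 to 25.9 CPM in SP mice and 32.8 to 40.3 CPM in WT mice (log2 fold change -0.57, adjusted p = 0.0226), with no overlap.

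Nars2, the mitochondrial asparaginyl-tRNA synthetase, was picked after its values were seen because its levels fell into a higher and a lower set. It was at 15.4, 16.5, 15.6, 15.1 and 15.5 CPM in SP placebo 1 to 5, against 8.57, 14.8, 9.05, 9.61 and 8.97 CPM in WT placebo 1 to 5. All SP libraries and WT placebo 2 were in the higher set, and the other 4 WT libraries in the lower one, although no WT library reached the lowest SP library. The MAT2Ai libraries showed the same pair of levels with exceptions on both sides, SP MAT2Ai 3 at 9.95 CPM and WT MAT2Ai 1 and 4 at 14.4 CPM each. The placebo log2 fold change was 0.61 with an unadjusted p of 0.002.

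On other chromosomes, the genes with the smallest p were few and of mixed roles. Reep6, a receptor accessory protein of the endoplasmic reticulum, was at 11.8, 14.6, 10.0, 10.5 and 12.8 CPM in SP placebo, against 20.6, 23.2, 18.5, 16.3 and 17.6 CPM in WT placebo. The groups did not overlap, and the log2 fold change was -0.69 ± 0.13 (adjusted p = 0.271). In the MAT2Ai libraries the difference was smaller, -0.20, with an adjusted p of 0.378.

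Chl1, a cell adhesion molecule of the L1 family, was the clearest gene in the other direction. It was at 1.95, 2.02, 1.91, 2.36 and 2.31 CPM in SP placebo, against 0.626, 0.952, 1.20, 0.898 and 1.47 CPM in WT placebo, with no overlap and a log2 fold change of 1.03 ± 0.22 (adjusted p = 0.407). Its difference in the MAT2Ai libraries was 0.90 (adjusted p = 0.0438), again with all 5 SP libraries above all 5 WT libraries at 1.44 to 2.30 against 0.696 to 1.42 CPM. DESeq2, the likelihood ratio test and limma-voom called Chl1, Reep6 and Pycard in placebo. DESeq2 and the likelihood ratio test also called Bhmt, Hba-a2 and Scgb1a1, and limma-voom called Slc5a2 (log2 fold change -2.13, adjusted p = 0.0315).

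Bhmt, which remethylates homocysteine to methionine with betaine, was at 0.626, 0.822, 0.859, 0.452 and 0.668 CPM in SP placebo, against 3.36, 1.31, 1.37, 1.01 and 1.58 CPM in WT placebo. The groups did not overlap, WT placebo 1 was far above the rest, and the log2 fold change was -1.33 ± 0.29 (adjusted p = 0.407). Without WT placebo 1 the log2 fold change was -0.94. Stra6, the cell receptor for retinol binding protein, was at 0.437 to 0.857 CPM in SP placebo and 1.58 to 2.65 CPM in WT placebo (log2 fold change -1.47 ± 0.36, adjusted p = 0.855). Cyp2d9, a cytochrome P450 of the male mouse, was at 71.4 to 123 CPM in SP placebo and 121 to 308 CPM in WT placebo (log2 fold change -0.96 ± 0.24, adjusted p = 0.855), where SP 1 and WT 5 just crossed. Cyp2d9 belongs to a cluster of close copies, and its counts may be shared with them.

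**Figure D3:**
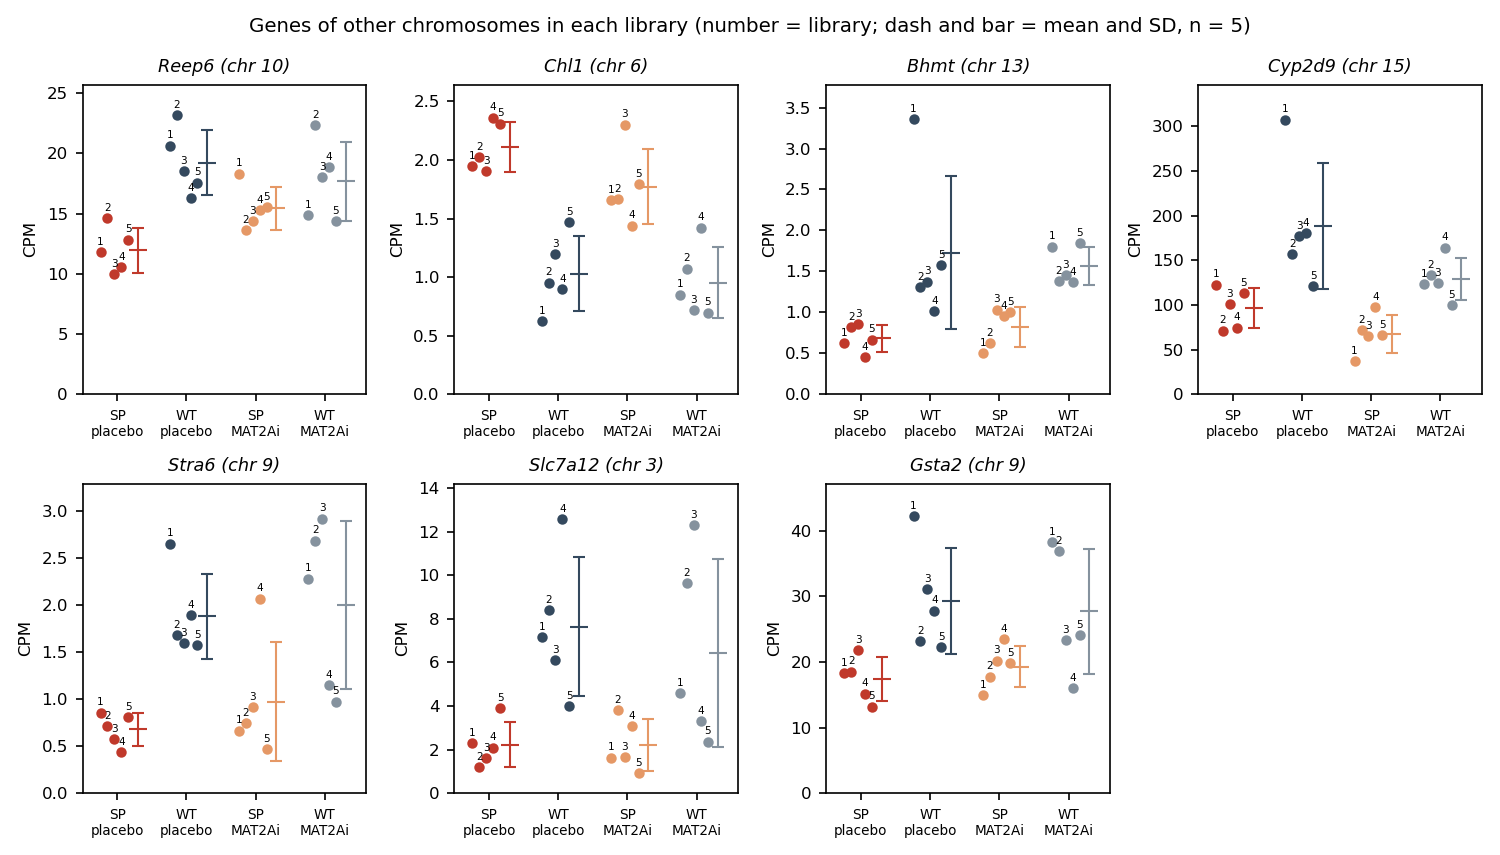
CPM of 7 genes of other chromosomes (vertical axes) in each library of the 4 groups (horizontal axes), with points, numbers, dashes and bars as in the plot of chromosome 7 genes. All panels but Cyp2d9 show placebo groups that do not overlap, and several overlap under MAT2Ai.

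Hba-a2, an alpha globin gene of red cells, had the smallest p of all genes. It was at 0.272, 0.320, 0.594, 0.131 and 0.431 CPM in SP placebo 1 to 5, against 7.75, 2.94, 1.65, 1.01 and 0.672 CPM in WT placebo 1 to 5 (log2 fold change -2.998, adjusted p = 0.271). The WT libraries stood in the same order for Hba-a2 as for Scgb1a1. Its near copy Hba-a1, which takes the bulk of such reads, went the other way, with a mean of 120 CPM in SP placebo and 83.7 CPM in WT placebo (log2 fold change 0.52, unadjusted p = 0.0931), and the 9 erythroid markers had a median log2 fold change of 0.06. The summed level of these markers ran from 375.7 to 1087 CPM in SP placebo and from 377.7 to 766.4 CPM in WT placebo. Ighd, an immunoglobulin heavy chain gene, followed Scgb1a1 as well (2.75 and 1.52 CPM in WT placebo 1 and 2, at most 0.55 CPM elsewhere in both groups). Leaving out WT placebo 1 and 2 together, a setting chosen after seeing the data, gave 0 calls.

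Renal glucose transporters other than Slc5a2 differed little in level. Of 15 tested genes of this group, Slc5a2 was lower and Slc2a9 higher at an unadjusted p under 0.05 (against 2.06% and 1.7% of all genes). The median log2 fold change was -0.01. Slc5a1 (SGLT1) averaged 74.2 ± 11.3 CPM in SP placebo and 74.0 ± 2.39 CPM in WT placebo (SD, n = 5 each), with a log2 fold change of 0.00 and a 95% interval of -0.27 to 0.28. Slc2a9, a carrier of urate and hexoses, was at 18.6 to 22.7 CPM in SP placebo and 16.2 to 17.8 CPM in WT placebo, which did not overlap (log2 fold change 0.28, unadjusted p = 0.01). Slc2a1 (GLUT1) had a log2 fold change of 0.16 with an interval of -0.02 to 0.33.

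Organic ion and drug transporters leaned upward in SP placebo. Among 20 organic ion and drug transporters, 3 were higher and none lower at an unadjusted p under 0.05 (against 1.7% and 2.06% of all genes), 16 had a positive sign, and the median log2 fold change was 0.14, against 0.00 over all genes. Slco1a4 averaged 3.48 CPM in SP placebo and 2.06 CPM in WT placebo (log2 fold change 0.75), Slc22a2 (OCT2) 512 CPM in SP placebo and 441 CPM in WT placebo (0.22), and Slc22a6 (OAT1) 1798 CPM in SP placebo and 1535 CPM in WT placebo (0.23). Of 14 markers of segment S3, 11 had a positive sign, with a median of 0.13. Of these, 1, Slco1a6, was higher at an unadjusted p under 0.05, against 1.7% of all genes. Slco1a1 (0.43) and Acsm3 (0.58), an acyl-CoA synthetase on chromosome 7 within the window around Slc5a2, had larger differences with intervals that held 0. Without SP placebo 1 and 2 the medians were 0.18 for the organic ion transporters and 0.23 for the S3 markers. The S1 and S2 markers had a median of 0.02, with Slc7a8 lower (-0.28) and Slc22a6 higher.

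Amino acid and phosphate transporters had a median of 0.01 among 19 tested, with 10 of positive and 9 of negative sign. Slc7a8 and Slc7a12 were lower at an unadjusted p under 0.05, against 2.06% of all genes. Slc20a2, a phosphate transporter picked here because all its SP libraries were above all WT libraries, had a log2 fold change of 0.09. Slc7a12, a transporter of the cationic and neutral amino acid family, was at 2.30, 1.20, 1.62, 2.10 and 3.91 CPM in SP placebo, against 7.17, 8.39, 6.09, 12.6 and 3.98 CPM in WT placebo. SP 5 and WT 5 nearly touched, and the log2 fold change was -1.77 ± 0.45 (adjusted p = 0.941). It was -1.53 in the MAT2Ai libraries (adjusted p = 0.0658).

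The lists of energy metabolism had medians near 0. The median log2 fold change was 0.02 for 12 genes of gluconeogenesis, -0.01 for 24 of glycolysis and -0.03 for 34 of fatty acid oxidation. It was 0.05 for 9 of ketone body metabolism (1 of them lower at an unadjusted p under 0.05, against 2.06% of all genes). Sterol synthesis had a median of 0.02 over 22 genes and fatty acid synthesis 0.03 over 17. Ldhd, a mitochondrial dehydrogenase of D-lactate, was at 2524 ± 273 CPM in SP placebo and 2090 ± 306 CPM in WT placebo (SD, n = 5 each), a log2 fold change of 0.27. Acaa2, the last enzyme of mitochondrial beta oxidation, had a log2 fold change of -0.35 and an interval of -0.59 to -0.10.

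For the pathway that the study followed, methionine and the methyl donor SAM, only mRNA was read here, and its median difference was near 0. SAM itself and other metabolites were not measured in these libraries. The study reported more SAM in renal cortex of SP than of WT mice on HFD. It also reported less Mat2a mRNA in the injured proximal tubule cells of WT mice on HFD than in their other proximal tubule cells. Of 27 genes of the methionine cycle and one-carbon metabolism, Bhmt alone had an unadjusted p under 0.05 (against 3.75% of all genes). There were 15 of positive and 12 of negative sign, and the median was 0.02. The summed level of the list leaned higher, at 4274 to 5057 CPM in SP placebo (median 4905) and 3700 to 4762 CPM in WT placebo (median 4304). Mat2a, the SAM synthetase outside the liver, was at 363 ± 76 CPM in SP placebo and 358 ± 56 CPM in WT placebo (SD, n = 5 each), with a log2 fold change of 0.02 and a 95% interval of -0.28 to 0.32. The 16 genes of PRC2 and H3K27 methylation had a median of 0.03. Jarid2, a PRC2 cofactor, was the one at an unadjusted p under 0.05 (-0.37). It leaned the other way under MAT2Ai (0.56, adjusted p = 0.0512), and the interaction of genotype and treatment had an unadjusted p of 0.000218. Aebp2, another cofactor, had a log2 fold change of -0.05 with an interval of -0.18 to 0.07. The study reported more of it in SP than in WT mice on HFD, as protein in renal cortex and as transcript in proximal tubule cells.

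Detoxification genes held a few lower values. Gsta2, a glutathione S-transferase, was at 18.3, 18.5, 21.9, 15.2 and 13.2 CPM in SP placebo, against 42.3, 23.2, 31.1, 27.8 and 22.2 CPM in WT placebo, without overlap (log2 fold change -0.75, unadjusted p = 0.00211). Gsta1 went with it (-0.81), but the 2 are near copies and may share reads. Gsr, glutathione reductase, was lower by a small amount (-0.16), and the median over 19 NRF2 targets was -0.04. Of 24 cytochrome P450 genes, 4 were lower and none higher at an unadjusted p under 0.05 (against 2.06% and 1.7% of all genes), Cyp2d12 (-0.75) and Cyp2c23 (-0.63) among them, and the median was -0.07. The summed level of the list leaned the other way, at 14570 to 18230 CPM in SP placebo (median 16690) and 13830 to 15700 CPM in WT placebo (median 14950).

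**Figure D4:**
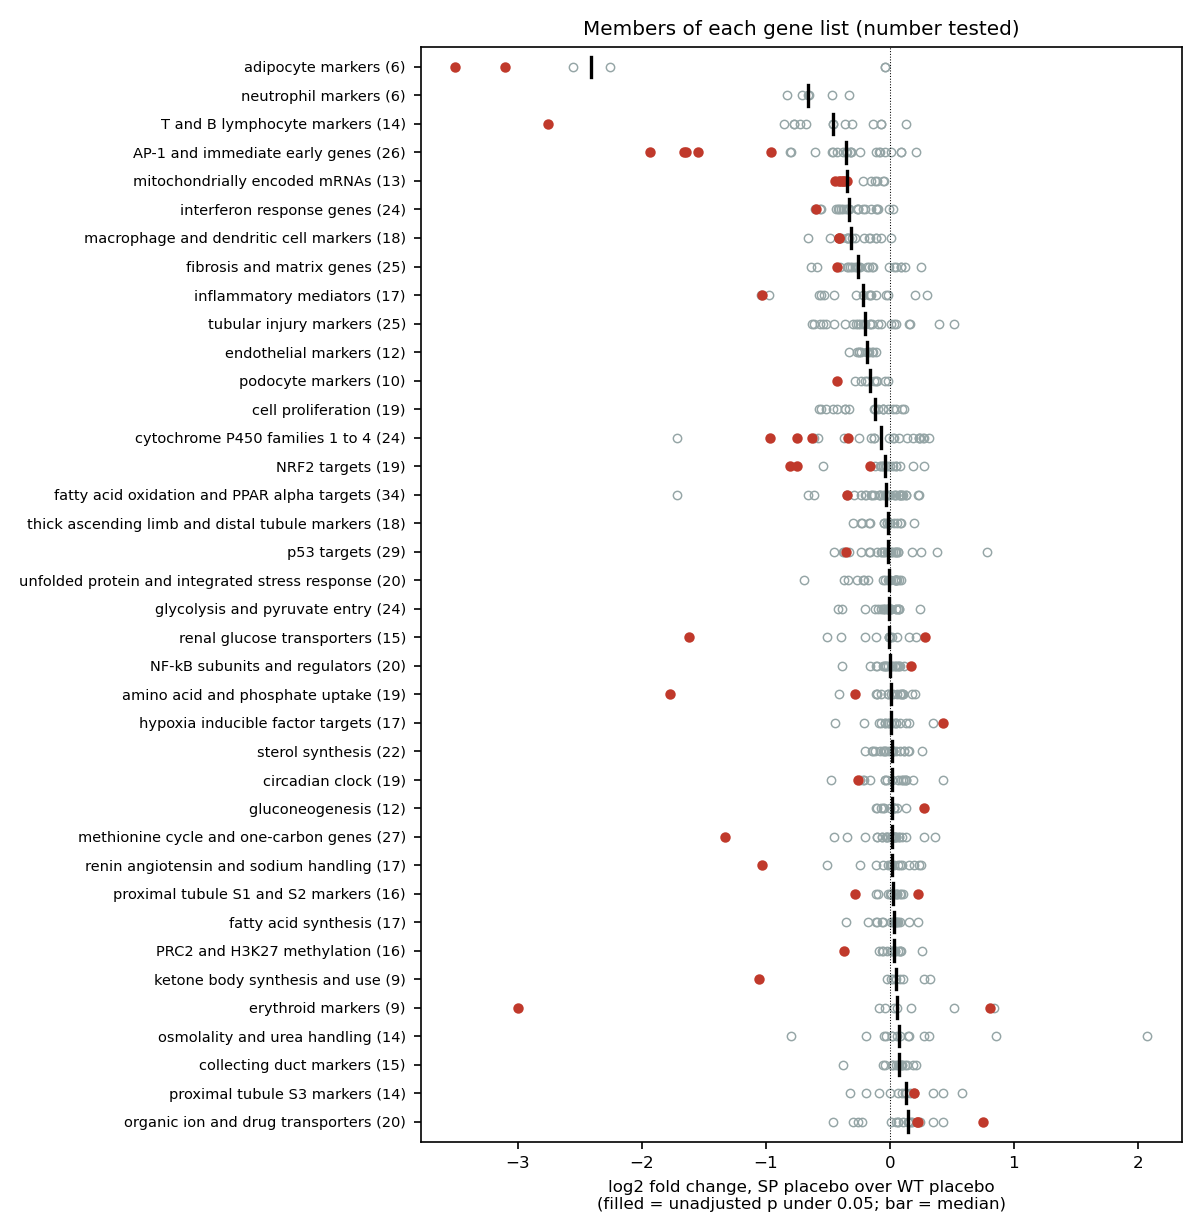
Log2 fold change of SP placebo over WT placebo (horizontal axis) for the tested members of 38 gene lists (rows, with the number tested). Filled points have an unadjusted p under 0.05, and vertical bars are medians. Medians of the immune cell, inflammatory, interferon, fibrosis and early response lists lie to the left of 0, though most of these lists have members on both sides. Most metabolic lists are centred on 0.

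Inflammatory and interferon genes had mostly negative signs in SP placebo, against 8073 of all 16152 genes, and no single gene passed the threshold. Of 24 interferon response genes, 23 had a negative sign and 1 (Ifi27l2a, -0.60) an unadjusted p under 0.05, with a median log2 fold change of -0.33. Of 17 inflammatory mediators, 15 were negative and 1, Ptgs2 (COX-2, -1.03), had such a p, with a median of -0.22. Of all genes, 2.06% were lower at that p. The summed level of the mediators overlapped, at 395.3 to 555 CPM in SP placebo and 427.9 to 548 CPM in WT placebo. That of the interferon list overlapped as well, at 91.87 to 125.9 CPM in SP placebo and 107 to 135.4 CPM in WT placebo. Ptgs2 averaged 0.385 CPM in SP placebo and 0.792 CPM in WT placebo. Il1b (-0.57, interval -1.41 to 0.27) and Ccl2 (-0.55, interval -1.40 to 0.30) were near 1 CPM, and Tnf and Il6 had too few counts to be tested. The 20 subunits and regulators of NF-kB had a median of 0.00, with 10 of each sign. Nfkb1 (-0.11), Nfkb2 (-0.05), Rela (0.01) and Relb (0.06), 4 of its subunits, all had intervals that held 0, as did the adhesion molecule Icam1 (-0.01).

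Without SP placebo 1 and 2 the medians were -0.35 for the interferon list and -0.25 for the inflammatory mediators. Immune cell markers had negative signs as well. Of 18 macrophage and dendritic cell markers, 17 had a negative sign, with a median of -0.32. Among them the complement genes C1qc and C1qb (-0.41 each) had an unadjusted p under 0.05, against 2.06% of all genes lower at that p. The summed level of the 18 was 197.8 to 339 CPM in SP placebo and 261.1 to 345.7 CPM in WT placebo. Of 14 tested lymphocyte markers 13 were negative (median -0.46, summed level 150.8 to 521.2 CPM in SP placebo and 237.1 to 559.9 CPM in WT placebo). All 6 tested neutrophil markers were negative (median -0.66), though their summed level was low, 1.54 to 12.7 CPM in SP placebo and 6.10 to 14.5 CPM in WT placebo. Without SP placebo 1 and 2, left out because of their Slc5a2 level, the neutrophil median was -1.54. In that fit 4 of 6 had an unadjusted p under 0.05, against 4.97% of all genes. The part of immune cells in the inflammatory and interferon lists was not tested. All 12 endothelial markers (median -0.18) and all 10 podocyte markers (median -0.16, Synpo at -0.43) also had a negative sign. Of 9 adipocyte markers 6 were tested, with a median of -2.41. WT placebo 2 was far above the other placebo libraries in Ucp1 (11.6 CPM) and Cidec (0.952 CPM). The summed level of the 9 overlapped, at 15.37 to 36.86 CPM in SP placebo (median 18.75) and 15.72 to 53.06 CPM in WT placebo (median 22.9). Genes of a list are not independent of each other, since all come from the same 10 libraries.

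Early response genes of the AP-1 group also had mostly negative signs. Of 26 tested, 22 were negative and 5, all lower, had an unadjusted p under 0.05 (against 2.06% of all genes), with a median of -0.35. Fos was at 1.56, 0.898, 0.937, 0.583 and 1.14 CPM in SP placebo, against 0.455, 4.66, 1.97, 8.63 and 3.88 CPM in WT placebo (log2 fold change -1.93, unadjusted p = 0.0145). Egr1 was at 2.17 to 4.17 CPM in SP placebo and 2.45 to 14.8 CPM in WT placebo (log2 fold change -1.54). WT placebo 1 had less of both than most SP libraries, while the other 4 WT libraries were higher. In the MAT2Ai libraries both genes leaned the other way, Fos by 1.70 and Egr1 by 1.24, but the median of the list stayed negative, at -0.23. The interaction of genotype and treatment for Fos had an unadjusted p of 0.00165 by the edgeR quasi-likelihood test. The summed level of the list overlapped in placebo, at 434.2 to 547.8 CPM in SP and 438.3 to 585 CPM in WT. Jun (-0.36) and Junb (-0.42) had intervals that held 0. Without SP placebo 1 and 2 the median of the list was -0.44.

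Injury and matrix genes leaned lower in SP placebo by small amounts. Havcr1, which encodes the tubular injury marker KIM-1, averaged 27.8 ± 10.4 CPM in SP placebo and 33.7 ± 9.99 CPM in WT placebo (SD, n = 5 each). Its log2 fold change was -0.28, with a wide interval of -1.90 to 1.34. That interval, like every other interval given here, uses the spread of all 20 libraries, not of the placebo libraries alone. So do the p values of injury markers. The summed injury list reached 11230 CPM in WT MAT2Ai 2, against at most 989.4 CPM in SP placebo and 939.4 CPM in WT placebo. The summed inflammatory mediators likewise reached 4932 CPM in WT MAT2Ai 2, against at most 555 CPM in SP placebo and 548 CPM in WT placebo. The median over 25 injury markers was -0.20, with none at an unadjusted p under 0.05. Of 25 fibrosis and matrix genes 19 were negative, with a median of -0.25. Tagln, the smooth muscle protein SM22 alpha, was at 19.4, 17.0, 19.2, 17.4 and 17.2 CPM in SP placebo, against 19.9, 27.2, 27.1, 26.1 and 21.1 CPM in WT placebo, just without overlap (log2 fold change -0.43, unadjusted p = 0.0134). Without SP placebo 1 and 2 the medians were -0.16 for the injury markers and -0.21 for the fibrosis genes. Acta2 (-0.24), Vim (-0.14), Col1a1 (-0.63), Col3a1 (-0.34) and Fn1 (0.04) had intervals that held 0. The thick ascending limb genes Umod (-0.30, interval -0.71 to 0.11) and Slc12a1 (-0.22, interval -0.79 to 0.34) did not separate the groups either.

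Mitochondrially encoded mRNAs were all lower in sign, with 6 of 13 at an unadjusted p under 0.05 (against 2.06% of all genes lower at that level) and a median of -0.34. The 6 were all counted at 307 CPM or less in WT placebo, mt-Co2 (17.6 CPM in SP placebo and 22.9 CPM in WT placebo, -0.38), mt-Co3 (-0.37), mt-Nd6 (-0.41), mt-Atp6 (-0.34), mt-Atp8 (-0.39) and mt-Nd4l (-0.44). The more abundant mt-Co1 (-0.06), mt-Cytb (-0.11), mt-Nd1 (-0.15) and mt-Nd5 (-0.04) differed less. The summed level of all 13 overlapped widely, 114600 to 190900 CPM in SP placebo and 144700 to 176000 CPM in WT placebo. In the MAT2Ai libraries the median of the same list was 0.01. These genes have copies in the nuclear genome, and reads that map to several places were not counted. The part of such reads in these values was not tested.

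The genotype difference was also read in the MAT2Ai libraries, which share no library with the placebo comparison, although all 4 groups share 1 estimate of the spread. There, 298 genes (1.84%) passed the threshold between SP MAT2Ai and WT MAT2Ai, 104 higher (0.644%) and 194 lower (1.2%), but that count depended on single libraries and on the fit. Leaving out 1 SP MAT2Ai library gave 0 (library 3 or 5), 1 (library 2) or 38 (library 1), and leaving out 1 WT MAT2Ai library gave 177 (library 3), 611 (library 1), 769 (library 5) or 774 (library 4). Fitted on the MAT2Ai libraries alone the count was 2, and with the replicate number as a block 88. The summed level of the 18 macrophage markers was 137.6 to 287.7 CPM in SP MAT2Ai and 292.2 to 2784 CPM in WT MAT2Ai, and its part in the count was not tested. Of the 298, 269 (90.3%) had the same sign in placebo, against 63.1% of all genes, and 63 (21.1%) had the same sign and an unadjusted p under 0.05 in placebo, against 512 of all 16152 genes. None had such a p with the opposite sign. The genes higher in SP MAT2Ai had a median log2 fold change of 0.14 in placebo and 0.38 under MAT2Ai, and those lower had -0.22 in placebo and -0.94 under MAT2Ai. The interaction term, which tests whether the genotype difference itself differed between treatments, called 0 genes by the edgeR quasi-likelihood test. It had 903 genes (5.59%) at an unadjusted p under 0.05, and 1 call each by DESeq2 and by the likelihood ratio test. Of the 298 genes, 169 had such an unadjusted interaction p. The MAT2Ai values that picked the 298 also enter the interaction, so a raised share among them is partly built in. Equal genotype differences in both treatments were therefore not shown for these genes.

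Besides Slc5a2, Chl1 and Tagln, further genes that passed under MAT2Ai also lay wholly apart in placebo, with the same sign, 16 of the 298 in all, against 1.19% of all genes lying apart with either sign. Those named here were picked by that pattern. Among those higher in SP placebo were Lpl, the lipoprotein lipase, at 500 to 563 CPM in SP placebo and 334 to 490 CPM in WT placebo (log2 fold change 0.30), Acot12, an acetyl-CoA hydrolase, at 223 to 259 CPM in SP placebo and 188 to 221 CPM in WT placebo (0.27), and Degs2, a sphingolipid hydroxylase, at 82.3 to 105 CPM in SP placebo and 54.1 to 80.5 CPM in WT placebo (0.40). Pank1, a pantothenate kinase of CoA synthesis, was at 375 to 411 CPM in SP placebo and 295 to 369 CPM in WT placebo (0.19). Dync1li1, a light intermediate chain of dynein, was at 101 to 113 CPM in SP placebo and 87.8 to 100.6 CPM in WT placebo (0.17).

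Among those lower in SP placebo were Rcan1, a regulator of calcineurin, at 53.5 to 66.7 CPM in SP placebo and 72.6 to 97.4 CPM in WT placebo (-0.48), and Mgp, an inhibitor of calcification, at 21 to 36.1 CPM in SP placebo and 36.5 to 59.7 CPM in WT placebo (-0.50). Ms4a6b, a gene of immune cells, was at 0.777 to 1.03 CPM in SP placebo and 1.29 to 2.27 CPM in WT placebo (-0.87), and Cd1d1, which presents lipids to T cells, at 0.262 to 0.563 CPM in SP placebo and 0.569 to 1.29 CPM in WT placebo (-0.95). The adjusted p of these 9 genes in placebo was 0.979 or above, and Pank1 and Mgp had an unadjusted p of 0.136 and 0.0638.

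**Figure D5:**
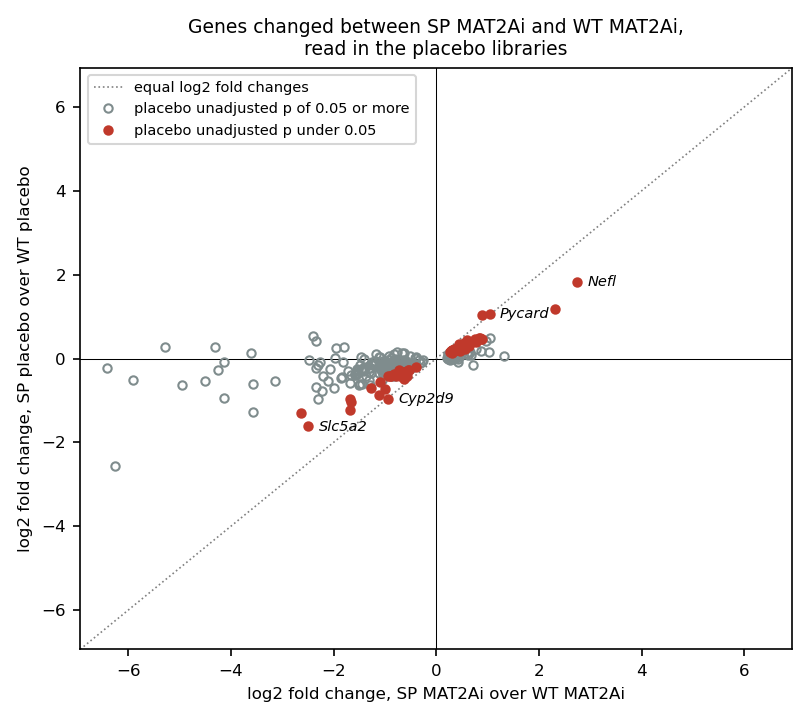
Log2 fold change of SP MAT2Ai over WT MAT2Ai (horizontal axis) and of SP placebo over WT placebo (vertical axis) for the 298 genes changed between SP MAT2Ai and WT MAT2Ai. Most points lie in the quadrants of equal sign and closer to 0 in placebo than the dotted line of equal log2 fold changes. Filled points have an unadjusted p under 0.05 in placebo.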

How the data were processed

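The authors isolated poly(A) RNA from kidney cortex, made directional libraries, aligned trimmed reads with STAR to mm10 and deposited htseq counts of reads per gene, raw and without scaling. The strand setting of the counting is not given in the sources used here, and the labels also mention nuclei, while the study's methods describe cortex RNA. Of 43430 gene IDs, 42546 took a symbol and position from GENCODE M21. The 5 htseq summary lines per library stayed out of all totals. Multiply mapped reads amounted to 48.3 to 63.6 alignments per 100 gene counts and were not counted.

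Genes passing filterByExpr (16152) were scaled by TMM and fitted with the edgeR 4.0.16 quasi-likelihood test (R 4.3.3) on all 20 libraries, 1 coefficient per group, with Benjamini-Hochberg adjustment over all genes and a threshold of 0.05. Log2 fold changes are SP over WT. An SE is the log2 fold change divided by the square root of F, and intervals are 95% intervals from it. DESeq2 1.42.0 and limma 3.58.1 served as alternatives. The steps were tested on simulated data.

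Members, gene lists and genes were chosen with earlier results of these data known. Named genes are those the study names for this model, the 10 smallest p among genes whose mean log2 CPM was 0 or more, up to 3 genes per list by p, and those said to be picked after their values were seen. Some genes that this rule or another tool picks are not reported here.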

Additional observations from a re-analysis of the deposited data

Results flagged for a closer look

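A library stood far from the other 4 of its group, by Dixon's gap test at the 95% level, in 22 of 312 groups of 5 libraries over the named genes (7.05%), where chance alone picks about 1 in 20 groups. SP placebo 5 was the library concerned 9 times, WT placebo 2 7 times, WT placebo 1 2 times, SP placebo 2 2 times, and SP placebo 1 and WT placebo 5 1 time each.

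In SP placebo 5 the values that stood apart were Fn1 at 21.9 CPM, Atp6v1g3 at 36.75 CPM, Alas2 at 33.6 CPM, Ucp1 at 0.501 CPM, Mtr at 10.1 CPM, Hspa1b at 15.01 CPM, Slc6a12 at 2.46 CPM, Cdc20 at 1.196 CPM and Ighd at 0.417 CPM. In SP placebo 2 they were Il6 at 0.0305 CPM and Cidec at 0.0761 CPM, both near the detection limit, and in SP placebo 1 Nfkbiz at 4.41 CPM.

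In WT placebo 2 they were Ucp1 at 11.6 CPM, Cidec at 0.952 CPM, Cidea at 1.64 CPM, Cdc20 at 2.32 CPM, Nars2 at 14.8 CPM, Cd1d1 at 1.29 CPM and Serpinb6a at 24.6 CPM. In WT placebo 1 they were Bhmt at 3.36 CPM and Slc2a9 at 17.75 CPM, and in WT placebo 5 Avpr1a at 6.38 CPM.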

How the results depend on the processing

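Counts of called genes moved with the tool and with single libraries. Between SP placebo and WT placebo, where the edgeR quasi-likelihood test called 0 genes, there were 7 calls by DESeq2, 7 by the likelihood ratio test and 4 by limma-voom. Leaving out SP placebo 1 and 2 gave 1 call, Slc5a2 (log2 fold change -2.936), as did the placebo libraries alone without them (1 call, -2.937), a setting chosen after seeing the data. Limma-voom gave Slc5a2 -2.128. Leaving out 1 library at a time gave 0 to 1 calls, and log2 fold changes of Slc5a2 from -2.06 to -1.38. Within 10 Mb of Slc5a2 it gave 0 to 1 calls, the 1 being Pycard without WT placebo 2. Of the members of the lists 1 passed without SP placebo 1 and 2, and 0 when any single library was left out. Between SP MAT2Ai and WT MAT2Ai the count was 298, against 1203 by DESeq2, 945 by the likelihood ratio test, 2 with the MAT2Ai libraries alone, and 0 to 774 without 1 library. The interaction had 1 call by DESeq2, 1 by the likelihood ratio test and 0 without any 1 library. The replicate block gave 0 calls in placebo and 88 under MAT2Ai. Replicate numbers did not pair the libraries: over 5 pairs the correlation ran from -0.116 to 0.105, and 2 libraries correlated best with their own number. Of 3151 values of 151 named genes under the alternatives, 3111 moved by less than 1 SD, 24 by more, and 16 passed the threshold. The cause of these changes was not tested. With 5 libraries per group the 95% interval reached beyond a log2 fold change of 1 for many low genes.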
